A study of Glycine max with 63 samples.

Results

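A set of 100 soybean genes was followed that were lower than wild type in embryos of both transgenic greenhouse lines at every time sampled. The members were chosen on greenhouse values alone. CPM, the counts scaled to a common library total, were formed without a stretch of 98 gene rows on chromosome 13, GLYMA_13G013600 to GLYMA_13G023300, and averaged within the groups that the file names give: Wt, G and R at T2, T3, T4 and T5. Of 55897 soybean genes, 15960 had a Wt mean of 5 CPM or more at all 4 times, and 2201 of these were below Wt in G and in R at every time. The 100 members had the lowest mean of the 8 log2 ratios of line to Wt, each taken after adding 0.5 CPM. The greenhouse values therefore chose the members and are given as a description, and the tests below use field seeds, which played no part in the choice.

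The recipient cultivar was Thorne (WT). Field seeds came from WT and from lines labelled W-1 and WD-1 sampled as filling advanced through R5, R5/6 and R6, with 3 plots in each of 9 groups and RNA from 4 genotyped seeds of a plot in a library. Greenhouse embryos, freed of seed coat and endosperm, came from WT, WD-1 and WD-2 plants, by their labels 24, 27, 30 and 33 days after pollination, with 1 embryo in each of 36 libraries. Reads of the Arabidopsis transgene AtWRI1 were found in all lines, and reads of the AtDGAT transgene in WD-1 and in the greenhouse lines but in 0 W-1 libraries. The labels' text on the field trial names WD-1 and WD-2, whereas the sample labels give W-1 and WD-1. The lines were homozygous. The promoters of the transgenes and the number of independent events behind a line were not found in the labels.

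WRI1 is a transcription factor that switches on genes of late glycolysis and of fatty acid synthesis in the plastid. DGAT1 is the acyltransferase that completes triacylglycerol, the storage form of seed oil. During R5 to R6 the soybean embryo fills, laying down storage protein and oil in its cotyledons while starch and soluble sugars turn over.

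None of the identifiers in the files (0) occurred among the 59048 genes of the table at hand for looking up names, so the members appear under their identifiers, without a role and without a printed sequence. The markers of seed tissue could not be looked up for the same reason. The chromosome digits in the identifiers place members on all 20 chromosomes, from 1 member on chromosome 16 to 10 on chromosome 8. Few lay close together. GLYMA_06G121600 and GLYMA_06G121900 were 3 rows apart in the table, GLYMA_20G147600 and GLYMA_20G148200 were 6 rows apart, and GLYMA_20G146200 was 14 rows before GLYMA_20G147600.

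Total counts, in mega-counts (M), ran from 3.02 to 23.6 M in the greenhouse libraries and from 1.17 to 36.2 M in the field libraries, of which 10 held under 5 M. The limit for a gene without counts, 3 counts, was 0.132 to 1.73 CPM in a greenhouse library and 0.0972 to 2.85 CPM in a field library. Both were formed without the chromosome 13 stretch and without TMM normalization. The field values of members below are TMM-normalized CPM with that stretch kept, so the field limits are on another scale. These limits cover counting error only. The genotype label and the file name disagreed on WT or line in 12 greenhouse libraries. By label the Wt libraries were of 24 or 27 days, the G libraries of 27 or 30 days and the R libraries of 30 or 33 days, so file-name times and labelled days do not correspond, and by label time would move with the line. The transgene reads followed the file names in all but 1 library: AtWRI1 was at 0 to 0.456 CPM in Wt, at 124 to 346 CPM in R, and at 189 to 367 CPM in G apart from the second G replicate at T5, which held 0 counts of both transgenes. In the field AtWRI1 was at 0 to 0.434 CPM in WT, 2.29 to 165 CPM in W-1 and 6.12 to 277 CPM in WD-1, and AtDGAT at 0.257 to 34.7 CPM in WD-1. At R5 AtWRI1 was at 7.40, 2.29 and 5.90 CPM in W-1 and at 6.12, 102 and 29.0 CPM in WD-1. At R5/6 and R6 it was at 122 to 165 CPM in W-1 and 81.3 to 277 CPM in WD-1. AtDGAT in WD-1 was at 0.257, 14.3 and 1.61 CPM at R5 and 8.65 to 34.7 CPM later. These transgene levels were not TMM-normalized, and the TMM factors of field libraries ran from 1.13 to 1.55 at R5 and from 0.578 to 0.920 at R6. The part of transgene level in the calls by stage below was not tested. The G library without transgene counts, labelled WD-1 at 30 days, had member values as low as the other G libraries at T5, with a median log2 CPM over members of 3.17 beside 3.42 and 3.93. With it left out of its group mean, 98 of the 100 members were chosen again. The rows of the chromosome 13 stretch held 3.27% to 28.9% of a Wt library, 1.79% to 28.8% of a G library and 6.40% to 68.6% of an R library. They were removed before CPM were formed.

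In Wt embryos the members were mostly genes whose level was higher late than early. Their median Wt mean was 15.6 CPM at T2, 30.0 at T3, 32.4 at T4 and 35.9 at T5. The log2 ratio of T5 to T2 in Wt was above 0 for 85 members, with a median of 0.89, whereas it was above 0 for 17.6% of all 15960 genes of that level, with a median of -0.34. The Wt mean peaked at T5 for 59 members, at T3 for 25, at T2 for 10 and at T4 for 6. In the lines the same ratio had a median of 0.29 in G and 0.11 in R. The Wt means entered the choice as denominators of the ratios to Wt. These values are therefore a description, and nothing is read from the difference from the 15960 genes.

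The members stood lowest against Wt at T4. In G the median log2 ratio to Wt was -1.09 at T2, -1.37 at T3, -2.06 at T4 and -1.77 at T5. In R it was -1.87, -2.29, -3.09 and -2.47 at the same times. Over all 15960 genes the medians lay between -0.20 and 0.22 in G and between -0.46 and -0.14 in R. The lowest of the 8 ratios was at T4 for 61 members, at T5 for 24, at T3 for 11 and at T2 for 4. The mean over times was lower in R than in G for 96 members. The median over all 15960 genes was also lower in R than in G at each time. The count of such genes among the 15960 was not made. All 3 G libraries lay below all 3 Wt libraries for 87 members at T2, 92 at T3, 100 at T4 and 91 at T5, where the same was true of 8.88%, 40.9%, 11.5% and 11.9% of the 15960 genes. For R the counts were 100, 97, 100 and 100, with 53.8%, 27.9%, 34.9% and 27.1% of the 15960 genes. Because the rule used these contrasts, nothing is read from those counts.

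**Figure D1:**
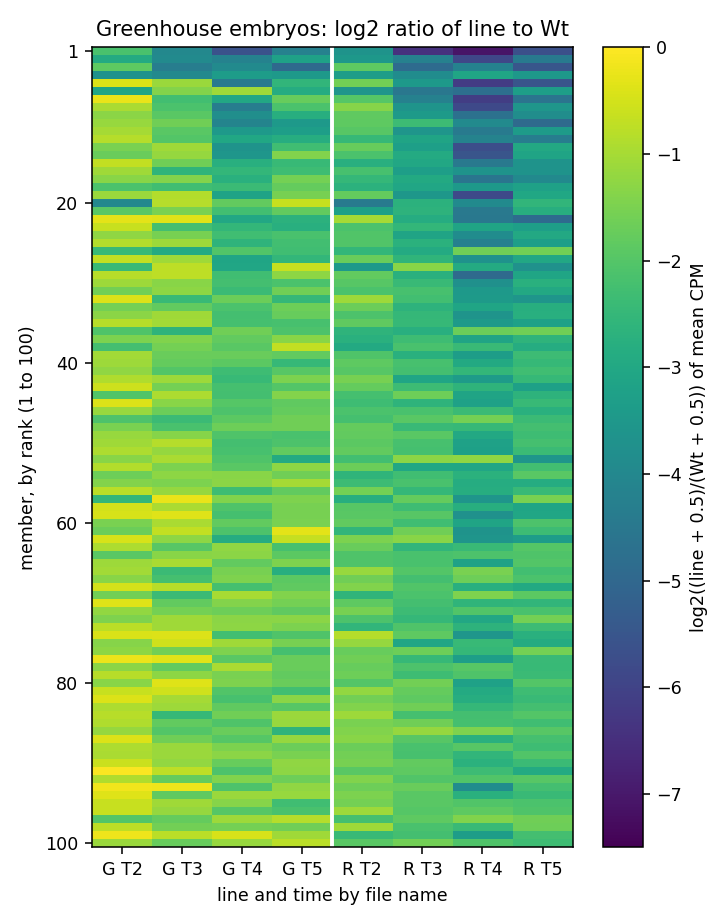
Log2 ratio of the group mean in G (left 4 columns) or R (right 4 columns) to the Wt mean, after adding 0.5 CPM, for each of the 100 members (rows, lowest mean at the top) at T2 to T5; color gives the ratio, with no error shown. The R columns are darker than the G columns, and R at T4, with a median of -3.09, is the darkest.

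The lowest member was GLYMA_20G146200, with a mean log2 ratio of -4.85. Its Wt libraries held 64.3, 39.7 and 32.9 CPM at T2 and 5332, 4733 and 3718 CPM at T5. The G libraries at T5 held 495, 83.6 and 173 CPM, and the R libraries 115, 99.5 and 57.4 CPM. At T2 the G libraries held 9.92, 15.9 and 3.45 CPM and the R libraries 1.72, 3.27 and 4.56 CPM. The gene was thus higher at T5 than at T2 in all 3 file-name groups, and at both times Wt lay above the lines without overlap.

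GLYMA_03G239700, with a mean log2 ratio of -4.03, had 358, 312 and 283 CPM in Wt at T2 and 7167, 7466 and 6324 CPM at T5. G held 54.3, 58.2 and 13.1 CPM at T2 and 656, 874 and 717 CPM at T5. R held 17.4, 25.4 and 39.4 CPM at T2 and 306, 298 and 373 CPM at T5. The Wt libraries were above all line libraries at both times.

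GLYMA_01G200100, with a mean log2 ratio of -3.93, was higher late in Wt alone. Wt went from 10.4, 4.84 and 4.70 CPM at T2 to 33.3, 39.8 and 29.9 CPM at T5. The G libraries held 1.51, 1.85 and 1.10 CPM at T2 and the R libraries 1.89, 0.739 and 1.72 CPM. At T5 the G libraries held 0.292, 0.593 and 1.01 CPM and the R libraries 0.267, 0 and 0.575 CPM, all lower than at T2.

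GLYMA_15G228600 was near 0 in the lines at all 4 times, with a mean log2 ratio of -3.53 that is limited by its modest Wt level. Its Wt means were 6.43 ± 1.11, 7.57 ± 0.974, 5.57 ± 0.958 and 5.92 ± 0.214 CPM at T2 to T5 (SD, n = 3). The highest value among the line libraries was 0.483 CPM, in R at T4.

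**Figure D2:**
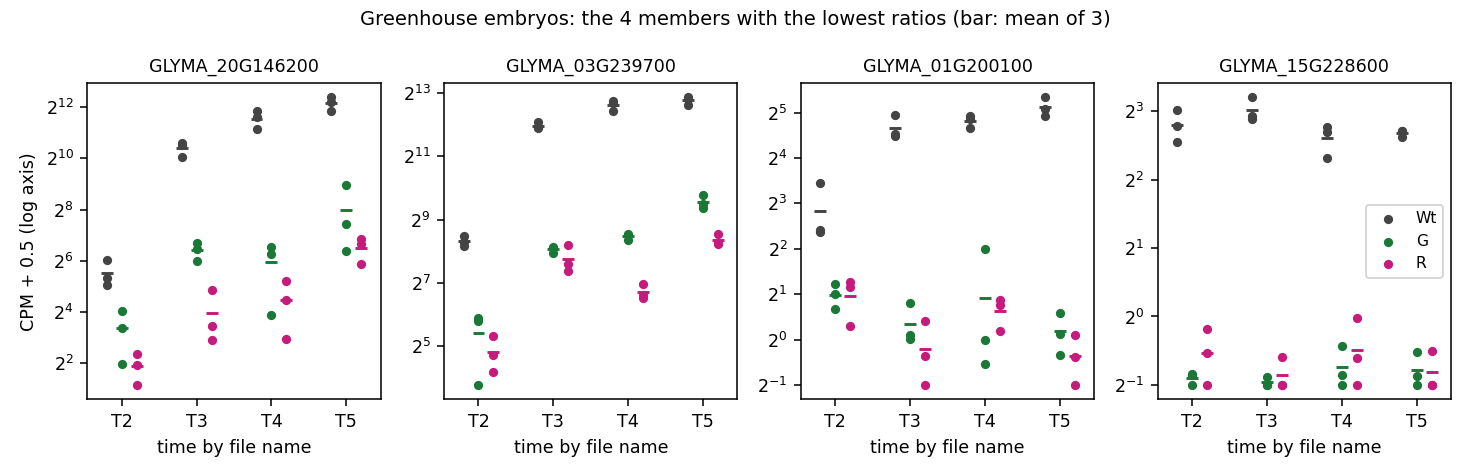
CPM + 0.5 on a log axis of the 4 members with the lowest mean ratio in the 36 greenhouse libraries, by file-name group and time; points are libraries and bars are means of 3. GLYMA_20G146200 and GLYMA_03G239700 are higher at T5 than at T2 in all groups, GLYMA_01G200100 is higher at T5 in Wt alone, and GLYMA_15G228600 stays near 0 CPM in G and R.

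The next members in the order differed widely in level. GLYMA_09G185500 had 301, 364 and 345 CPM in Wt at T5, 148, 8.24 and 12.1 CPM in G and 8.62, 4.27 and 7.48 CPM in R. One G library thus lay far above the other two, and all lay below Wt. GLYMA_20G148200, the member with the highest Wt mean at T5, 8091 CPM, spread widely at T2, where its Wt libraries held 1015, 143 and 107 CPM. GLYMA_02G111100 overlapped between Wt and G at T2, with 12.6, 13.7 and 30.5 CPM in Wt and 22.6, 13.2 and 11.9 CPM in G. GLYMA_02G076600, GLYMA_05G004300 and GLYMA_19G004800 completed the 10 lowest, with mean log2 ratios of -2.99, -2.95 and -2.92. In all, 47 members had a mean log2 ratio below -2 and 7 a ratio below -3, and 38 members were at or below -1 in all 8 ratios.

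The limit at rank 100 fell within a continuum. Just inside it, GLYMA_11G097500, GLYMA_15G075500, GLYMA_04G132400, GLYMA_18G155800 and GLYMA_07G234900 had mean log2 ratios of -1.62, -1.61, -1.61, -1.59 and -1.58. Just outside it, GLYMA_10G233300, GLYMA_11G047900, GLYMA_18G091900, GLYMA_13G294300 and GLYMA_16G189900 had ratios of -1.58, -1.57, -1.57, -1.57 and -1.57.

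In field WT seeds most members rose between R5 and R6. Of the 100, all of which passed the filter on low counts, 69 rose and 4 fell by edgeR's quasi-likelihood test on all 27 field libraries, with p-values adjusted over 38914 genes at 0.05, and 27 did not pass. Over all genes 15.0% rose and 18.0% fell. Among the 15959 genes tested that had the greenhouse Wt level of the rule, 24.9% rose and 13.6% fell. Among the 2101 other genes below Wt in both greenhouse lines at every time, 37.3% rose and 10.2% fell. The median log2 fold change was 2.92 over members and -0.07 over all genes. With scaling by library size alone the median of all genes shifted to -1.09, and 57 members then rose and 17 fell. The share of all genes called in this and later altered fits is not given. Whether calls were lost among the members in particular or among genes in general is therefore not shown. The 4 that fell were GLYMA_15G075500, GLYMA_08G143800, GLYMA_11G097500 and GLYMA_10G047100.

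Field levels of members were low at R5. The median of their WT means was 2.71 TMM-normalized CPM at R5, 11.7 at R5/6 and 18.9 at R6, and 33 members had a WT mean under 1 at R5. GLYMA_03G239700 went from 0.175, 2.37 and 0.777 TMM-normalized CPM at R5 to 30.9, 80.1 and 134 at R5/6 and 1765, 2061 and 2439 at R6. This rise measured 10.91 on the log2 scale by edgeR (SE 1.06, adjusted p = 1.23e-07). In bulk seeds, fewer cells of a type and less RNA per cell cannot be told apart.

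The library medians of the members parted from WT after R5. At R5 the median log2 TMM-normalized CPM over members was 1.20, 1.21 and 1.98 in the WT libraries, 1.34 to 1.69 in W-1 and 1.42 to 1.90 in WD-1, and the ranges overlapped. At R5/6 it was 3.31 to 3.93 in WT, 2.68 to 3.63 in W-1 and 1.87 to 2.37 in WD-1. WD-1 then lay wholly below WT, and W-1 overlapped it. At R6 it was 3.55, 3.80 and 4.70 in WT, 2.75 to 3.36 in W-1 and 2.30 to 2.84 in WD-1, with both lines below WT. The third WT library at R6 stood above the other two, which held 2.51 and 1.17 M counts against its 27.2 M.

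**Figure D3:**
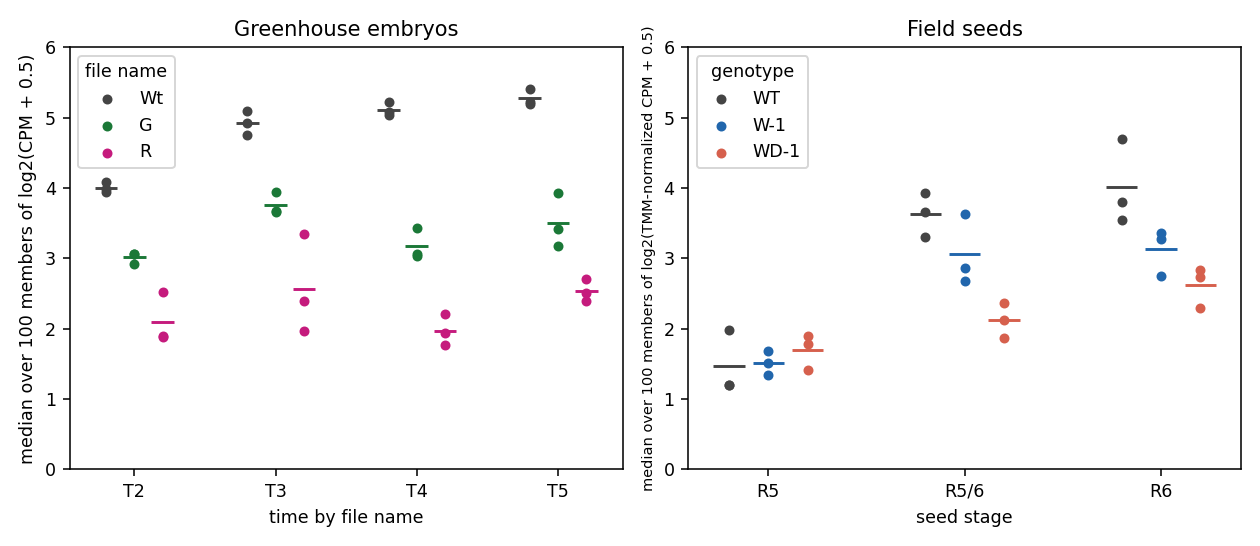
Median over the 100 members of log2(CPM + 0.5) in each library, for greenhouse embryos by file-name group and time (left, CPM without the chromosome 13 stretch) and for field seeds by genotype and stage (right, TMM-normalized CPM); points are libraries and bars are means of 3. The left panel shows the values that chose the members, whereas in the right panel the 9 libraries at R5 overlap and the WD-1 libraries at R5/6 (1.87 to 2.37) lie below the WT libraries (3.31 to 3.93).

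WD-1 seeds, which carried both transgenes, had lower members than WT when the 3 stages were averaged. Of 100 members 40 fell and 0 rose by edgeR's quasi-likelihood test (adjusted over all genes), beside 0.907% of all genes that fell and 2.14% that rose. In either direction, 80 members had an unadjusted p under 0.05. The share of all genes at that threshold is not given here or for later counts of this kind. Nothing is read from those counts. The median log2 fold change was -1.01 over members, with 98 below 0, and 0.00 over all genes. Among the 2101 other genes that were below Wt in both greenhouse lines at every time, 6.24% fell in WD-1. Of the 40 members, 25 were among the greenhouse ranks 1 to 50 and 15 among ranks 51 to 100. Without the third WT library at R6 the count was 18 instead of 40. With scaling by library size alone it was 26, the median of all genes then being 0.15.

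By stage, nearly all WD-1 calls were at R5/6 and R6. At R5, 1 member fell and 0 rose, with 0.0154% of all genes lower and 0.162% higher. The median was 0.16 over members, with 37 below 0 and 62 above. In either direction 19 members had an unadjusted p under 0.05. At R5/6, 41 fell and 0 rose, with 0.712% of all genes lower and 0.989% higher and a median of -1.66 over members. At R6, 38 fell and 0 rose, with 0.892% of all genes lower and 2.35% higher and a median of -1.62. With members whose group held 0 counts set to the limit of 3 counts over the group, the medians were 0.16, -1.67 and -1.62. The R6 count was 7 without the third WT library, 21 without the first WD-1 library and 24 without the second, and 25 with libraries over 10 M counts alone. The R5/6 count was 24 without the second WT library and 11 without the third, 8 without the first WD-1 library and 13 without the second, and 26 with scaling by library size alone, where the median of all genes shifted to 0.32.

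At R5/6 the genotypes overlapped in position along the axis that separated the stages, and the library nearest to R5 was of WD-1. On the first principal component of the other 38814 field genes, which held 45.7% of the variance, the 9 libraries at R5 lay between 91.5 and 122 and the 9 at R6 between -127 and -79.4. At R5/6 the WD-1 libraries were at -15.6, 18.2 and 59.5, the WT libraries at -38.6, -0.33 and 7.91, and the W-1 libraries at -57.4, -20.5 and 0.49. The part of this position in the R5/6 counts was not tested. At R5 WD-1 spanned 91.5 to 112, WT 108 to 122 and W-1 112 to 116. At R6 WD-1 spanned -126 to -79.4 and WT -124 to -86.7.

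**Figure D4:**
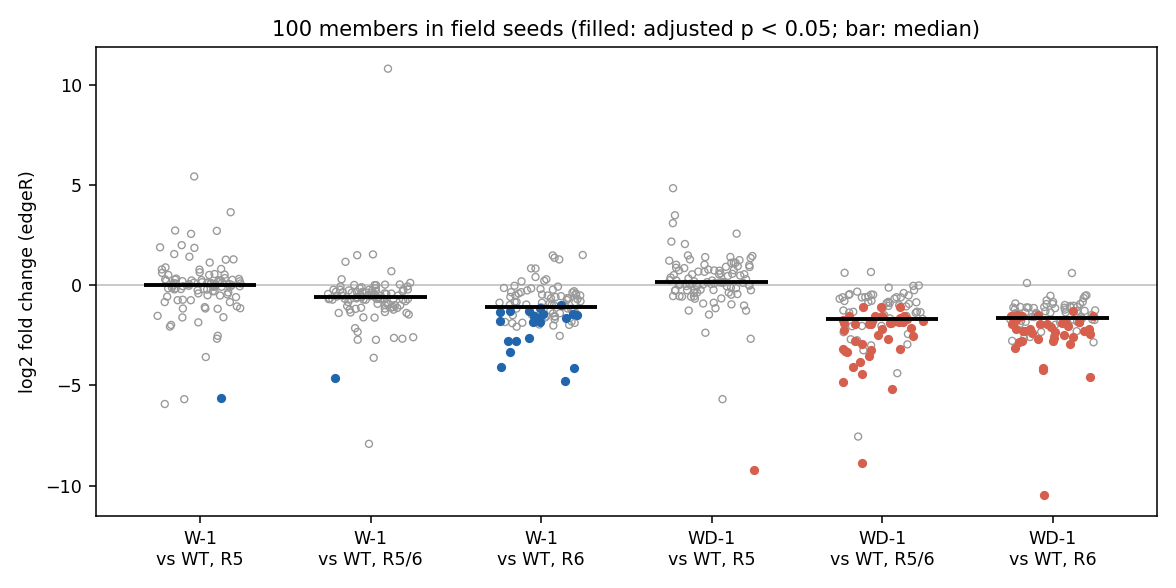
edgeR log2 fold change of each of the 100 members against WT in W-1 and WD-1 at R5, R5/6 and R6; points are members, filled where the adjusted p is under 0.05, and the bar is the median. The median is near 0 at R5 in both lines and at -1.66 and -1.62 at R5/6 and R6 in WD-1, and the extreme points belong to members with a group at or near 0 counts.

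GLYMA_03G239700 carried the WD-1 pattern at a high level. In WD-1 it held 0.121, 2.00 and 2.94 TMM-normalized CPM at R5, 1.14, 4.59 and 7.99 at R5/6 and 45.7, 154 and 137 at R6. At R5 the libraries overlapped those of WT, and at R5/6 and R6 all 3 lay below all 3 of WT. The log2 fold change was -2.75 over stages (SE 0.47, adjusted p = 0.000502, edgeR), -4.40 at R5/6 (adjusted p = 0.00852) and -4.21 at R6 (adjusted p = 0.00172). The call over stages was kept in all 35 alternatives tried, with adjusted p from 7.19e-06 to 0.0314.

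GLYMA_06G019000 held 0 counts in the R5 libraries of both lines, where WT had 0.0780, 0.688 and 0.146 TMM-normalized CPM. At R5/6 WT held 8.46, 18.6 and 30.1 and WD-1 0.617, 3.09 and 2.66. At R6 WT held 25.1, 33.6 and 63.8 and WD-1 5.89, 12.0 and 6.87. The WD-1 libraries lay below all WT libraries at both stages, with log2 fold changes of -3.30 (SE 0.65, adjusted p = 0.0122) and -2.26 (SE 0.62, adjusted p = 0.0464) by edgeR.

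GLYMA_09G185500 held 30.5, 98.1 and 129 TMM-normalized CPM in WT at R6, 19.5, 29.3 and 26.7 in W-1, and 4.91, 7.47 and 23.5 for WD-1. Both lines lay below WT there. It fell in WD-1 by 1.59 on the log2 scale over stages (SE 0.34, adjusted p = 0.00636, edgeR), and W-1 did not pass the test over stages, with -0.52 (adjusted p = 0.523, edgeR). That W-1 value was -1.001 without the third W-1 library at R5, -0.33 without the second WT library at R5 and -0.35 without the third WT library at R6.

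GLYMA_05G004300 had R6 libraries at 46.0, 91.4 and 228 TMM-normalized CPM in WT and 5.40, 11.4 and 26.8 in WD-1, without overlap. At R5 the WT libraries, 2.65, 4.57 and 1.26, overlapped the WD-1 libraries, 1.40, 1.78 and 3.72. Over stages it fell in WD-1 by 1.80 on the log2 scale (SE 0.36, adjusted p = 0.00289, edgeR).

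GLYMA_02G076600 held 108, 186 and 347 TMM-normalized CPM in WT at R6 and 21.6, 53.4 and 23.5 in WD-1, all below WT. It fell in WD-1 by 2.37 over stages (SE 0.58, adjusted p = 0.0204, edgeR), a call that was lost in 4 of 35 alternatives. Those left out the first or second WT library at R5 (-2.35 and -2.32), the first WD-1 library at R5 (-2.08) or the third WT library at R6 (-2.18). Without the second WD-1 library at R5 the value was -3.72 and still past the threshold. GLYMA_19G147200 held 54.0, 47.1 and 140.1 TMM-normalized CPM in WT at R6 and 12.3, 12.5 and 17.7 in WD-1, also all below WT. It fell by 1.54 over stages (SE 0.34, adjusted p = 0.00839, edgeR).

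The smallest WD-1 changes past the threshold were of less than 1 on the log2 scale. GLYMA_04G241800 fell by 0.77, GLYMA_14G189500 by 0.72, GLYMA_08G025100 by 0.66 and GLYMA_06G058200 by 0.60 over stages, with adjusted p of 0.0205, 0.0139, 0.00371 and 0.0377 by edgeR. With scaling by library size alone the 4 genes no longer passed, with -0.62, -0.58, -0.51 and -0.46 in that order. With 1 library left out, the GLYMA_06G058200 call was lost in 11 of the fits (-0.68 to -0.42), that of GLYMA_04G241800 in 5 (-0.84 to -0.65), that of GLYMA_14G189500 in 1 (-0.87 to -0.62) and that of GLYMA_08G025100 in 0 (-0.72 to -0.58).

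GLYMA_15G228600 was close to absent in WD-1 at all stages. In WT it held 8.04 to 11.1 TMM-normalized CPM at R5, 8.37 to 8.93 at R5/6 and 5.38 to 9.67 at R6, and W-1 held 7.03 to 11.0, 6.65 to 8.74 and 9.24 to 9.95. The 9 WD-1 libraries held 2 rounded counts in all, in 2 libraries, with levels of 0 to 0.333. WD-1 differed from WT at R5 already (adjusted p = 3.6e-10) and over stages (adjusted p = 3.77e-14, edgeR), while W-1 overlapped WT at all stages with a log2 fold change of -0.02 (adjusted p = 1), or -0.06 to 0.11 with 1 library left out. It was the 1 member that fell in WD-1 at R5. Without the second WT library at R5, 1 member fell and 4 rose there, and without the first WD-1 library 1 fell and 1 rose.

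W-1 seeds, which carried AtWRI1 without AtDGAT reads, also had members below WT past the threshold. Over stages 12 members fell and 0 rose by edgeR's quasi-likelihood test, beside 0.570% of all genes that fell and 1.96% that rose. In either direction 41 members had an unadjusted p under 0.05. The median log2 fold change was -0.53 over members, with 86 below 0, and -0.02 over all genes. Among the 2101 other genes below Wt in both greenhouse lines, 1.67% fell. Of the 12 members, 9 were among the greenhouse ranks 1 to 50. The count was 6 without the second WT or the second W-1 library at R5, and 7 without the third WT or the first W-1 library at R5/6 or the third WT or the second W-1 library at R6. W-1 and WD-1 were compared with the same WT libraries, so their counts are not independent of each other.

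By stage, 1 member fell and 0 rose in W-1 at R5, with 0.0128% of all genes lower and 0.0257% higher. There 14 members had an unadjusted p under 0.05 in either direction, and the median was 0.03 over members. At R5/6, 1 fell and 0 rose, with 0.0206% of all genes lower and 0.103% higher. There 22 members had an unadjusted p under 0.05 in either direction, and the median was -0.59. At R6, 22 fell and 0 rose, with 1.23% of all genes lower and 3.21% higher and a median of -1.07. The R6 count was 4 without the third WT library, 13 without the first W-1 library and 8 without the second. At R5 the calls were 1 lower and 1 higher without the first W-1 library and 1 lower and 2 higher without the second, and at R5/6 it was 2 without the first WD-1 library at R5. DESeq2 called 2, 3 and 22 members at the 3 stages.

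GLYMA_14G136300 was the member called at R5 and R5/6 in W-1. It held 20.6, 14.4 and 23.3 TMM-normalized CPM in WT at R5, 0.313, 0.350 and 0.437 in W-1 and 12.7, 17.5 and 8.23 for WD-1. At R6 it held 23.5, 25.5 and 20.4 in WT, 1.30, 1.47 and 0 in W-1 and 5.89, 16.5 and 6.15 for WD-1. W-1 lay far below both other genotypes at each of these stages, and WD-1 overlapped WT at R5 alone. The log2 fold change over stages was -4.80 in W-1 (SE 0.27, adjusted p = 1.46e-11) and -1.15 in WD-1 (SE 0.20, adjusted p = 0.000847) by edgeR. In the greenhouse it held 16.9 to 24.6 CPM in Wt, 9.08 to 16.1 CPM in G and 1.73 to 2.65 CPM in R at T5.

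GLYMA_15G043600 was called in W-1 over stages in all 35 alternatives. Its R6 libraries held 16.6, 9.41 and 19.3 TMM-normalized CPM in WT, 2.83, 0.765 and 0 in W-1 and 0.982, 5.13 and 5.07 for WD-1, so both lines lay below WT. The log2 fold change over stages was -2.27 in W-1 (SE 0.48, adjusted p = 0.00599) and -1.25 in WD-1 (SE 0.44, adjusted p = 0.138) by edgeR.

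GLYMA_03G239700 in W-1 held 4.77, 12.1 and 5.06 TMM-normalized CPM at R5/6 and 276, 933 and 409.9 at R6, all below WT. Its log2 fold change over stages was -2.10 (SE 0.47, adjusted p = 0.0113, edgeR). The call was lost without the second WT library at R5, with -1.70, and with libraries over 10 M counts alone, with -2.31.

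GLYMA_01G200100 fell in both lines at R6. It held there 9.09, 10.8 and 9.83 TMM-normalized CPM in WT, 0.924, 0.319 and 0 in W-1 and 0.491, 0.279 and 1.45 for WD-1, while at R5 all 9 libraries were at 0 to 0.980. The log2 fold change at R6 was -4.10 in W-1 (SE 0.76, adjusted p = 0.00132) and -4.12 in WD-1 (SE 0.84, adjusted p = 0.0041) by edgeR. At R5/6 it was -3.24 in WD-1 (SE 0.76, adjusted p = 0.0271, edgeR), also past the threshold. Over stages it was -1.81 (adjusted p = 0.0306) and -1.77 (adjusted p = 0.0336), calls that were lost in 7 and 12 of 35 alternatives, 6 and 10 of them with 1 library left out. Leaving out 1 library moved the values between -2.16 and -1.53 in W-1 and between -2.04 and -1.48 in WD-1.

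GLYMA_20G146200, the lowest member in the greenhouse, was scarce in the field before R6. It held 74.8, 192 and 1178 TMM-normalized CPM in WT at R6, 6.74, 40.5 and 0 in W-1 and 0, 45.3 and 7.96 for WD-1, so both lines lay below WT. At R6 the log2 fold change was -4.78 in W-1 (SE 1.06, adjusted p = 0.00922) and -4.57 in WD-1 (SE 1.05, adjusted p = 0.015) by edgeR. At R5 and R5/6 the W-1 libraries held 0 counts and WT at most 2.22 TMM-normalized CPM.

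The other members called in W-1 over stages were GLYMA_06G019000, GLYMA_05G004300, GLYMA_02G260100, GLYMA_10G047100, GLYMA_19G194500, GLYMA_08G083700 and GLYMA_08G025100. Apart from GLYMA_06G019000, whose fitted value rests on R5 libraries at 0 counts, their log2 fold changes ran from -1.42 to -0.62, with adjusted p from 0.00685 to 0.0439 by edgeR. GLYMA_08G025100 kept its call with each library left out in turn, with -0.69 to -0.54, and lost it with libraries over 10 M counts alone, with -0.44. Of the rest, GLYMA_19G194500 was lost without any of 15 libraries, GLYMA_08G083700 without any of 10 (-0.42 without the third WT library at R6), GLYMA_05G004300 without any of 8, GLYMA_02G260100 without any of 5, GLYMA_06G019000 without any of 3 and GLYMA_10G047100 without any of 2.

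**Figure D5:**
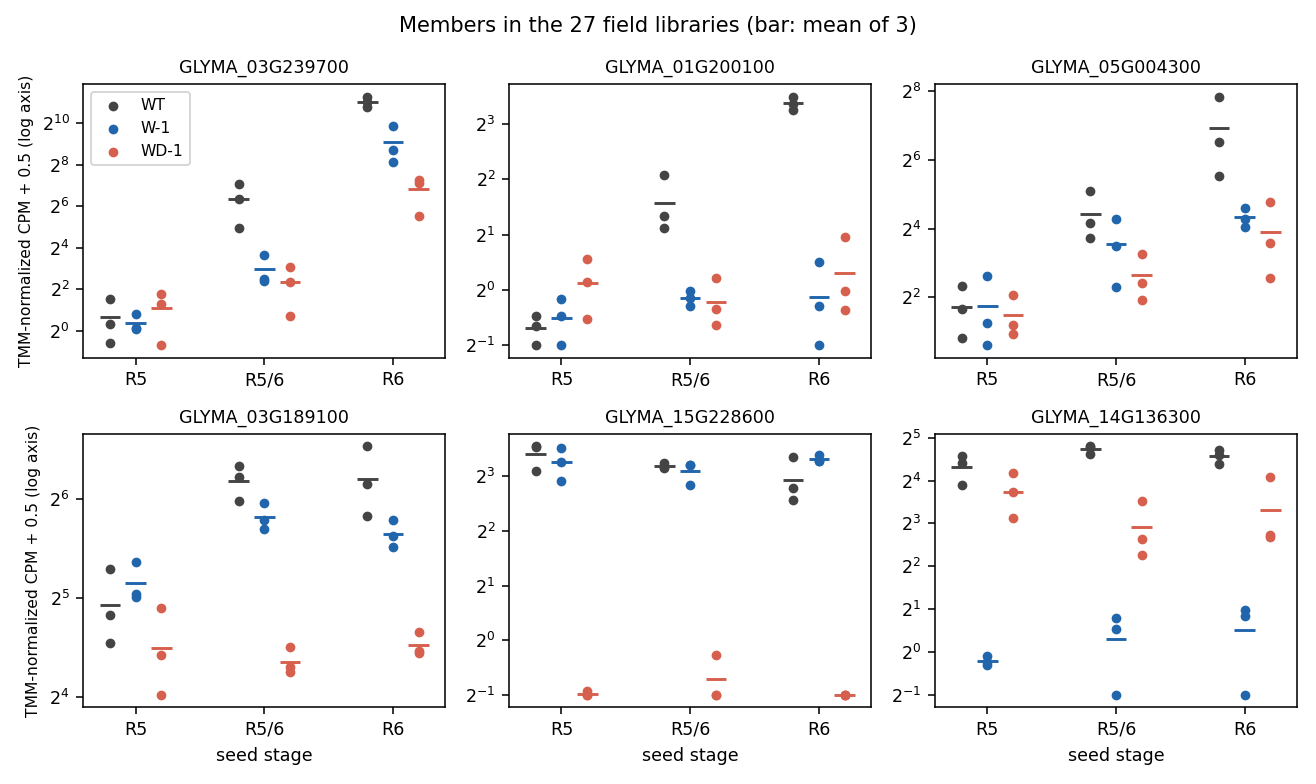
TMM-normalized CPM + 0.5 on a log axis of 6 members in the 27 field libraries, by genotype and stage; points are libraries and bars are means of 3. GLYMA_03G239700, GLYMA_01G200100 and GLYMA_05G004300 separate from WT after R5. GLYMA_03G189100 is low in WD-1 at R5/6 and R6, GLYMA_15G228600 is near 0 in WD-1 at all stages, and GLYMA_14G136300 is lowest in W-1.

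GLYMA_10G214500 and GLYMA_01G095000 were the members with the highest field WT levels. GLYMA_10G214500 held 2355, 3738 and 10214 TMM-normalized CPM in WT at R6, 546, 1026 and 773 in W-1 and 492, 1588 and 557 for WD-1, with both lines below WT. It passed the test at R6 in W-1 (-2.80, SE 0.65, adjusted p = 0.00949) and WD-1 (-2.63, SE 0.64, adjusted p = 0.0185) by edgeR, and in neither line over stages. GLYMA_01G095000 held 5669, 5445 and 6273 in WT at R6, 2901, 5788 and 1802 in W-1 and 2066, 2823 and 916 for WD-1. W-1 overlapped WT and WD-1 did not, and neither passed the test at R6, with -0.73 (SE 0.75, adjusted p = 0.702) and -1.58 (SE 0.77, adjusted p = 0.35) by edgeR.

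GLYMA_20G148200 gave no call in either line. At R6 it held 277, 834 and 3304 TMM-normalized CPM in WT, 66.5, 1443 and 169 in W-1 and 161, 1012 and 86.5 for WD-1, with overlap between all genotypes. GLYMA_02G111100 and GLYMA_19G004800 gave no call over stages either, their log2 fold changes being -0.89 and -1.17 in W-1, and -1.08 and -1.03 for WD-1 (adjusted p from 0.215 to 0.398, edgeR). Without the third WT library at R6 these values were -0.38 and -0.61 in W-1, and -0.57 and -0.52 for WD-1. For GLYMA_02G111100 the W-1 value was -1.34 without the second W-1 library at R5/6, and for GLYMA_19G004800 the WD-1 value was -1.69 without the third WD-1 library at R6.

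Compared directly, WD-1 had 5 members lower and 1 higher than W-1 over stages, beside 0.116% of all genes lower and 0.439% higher. In either direction 25 members had an unadjusted p under 0.05. The median difference was -0.35 on the log2 scale over members, with 89 below 0, and 0.00 over all genes. With libraries over 10 M counts alone the count called was 10 instead of 6. GLYMA_14G136300 was the member higher in WD-1, by 3.65 (SE 0.27, adjusted p = 1.28e-09, edgeR).

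GLYMA_03G189100 was lower in WD-1 than in W-1 and WT. It held 62.5, 74.0 and 80.0 TMM-normalized CPM in WT at R5/6, 62.0, 54.7 and 51.3 in W-1 and 18.5, 19.3 and 22.3 for WD-1. The R6 levels were 70.6, 56.5 and 91.9 in WT, 48.9, 54.9 and 45.4 in W-1 and 21.6, 24.8 and 21.3 for WD-1. WD-1 was below both other genotypes at both stages. At R5 the gene did not pass the test in WD-1. Its WD-1 effect was lower at R6 than at R5 by 1.25 (SE 0.31, adjusted p = 0.0427, edgeR). The difference of WD-1 from W-1 was -1.11 (SE 0.13, adjusted p = 5.99e-06), and that of WD-1 from WT -1.35 (SE 0.13, adjusted p = 1.94e-07), by edgeR. The W-1 value against WT was -0.24 (SE 0.12, adjusted p = 0.418). In the greenhouse at T5 it held 90.6 to 104 CPM in Wt, 29.7 to 32.8 CPM in G and 17.8 to 22.1 CPM in R.

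GLYMA_20G098500 libraries at R6 held 3.21, 2.69 and 4.45 TMM-normalized CPM in WT, 14.2, 11.3 and 6.22 in W-1 and 3.93, 1.90 and 1.81 for WD-1, so W-1 lay above both. Over stages the WD-1 level was lower than that of W-1 by 1.26 on the log2 scale (SE 0.24, adjusted p = 0.00756, edgeR). GLYMA_03G052200 and GLYMA_20G068000 were lower in WD-1 than in W-1 by 1.57 and 1.15 (adjusted p = 0.021 and 0.0394, edgeR). The GLYMA_03G052200 difference was -0.91 and no longer past the threshold without the third W-1 library at R5, which held 10.0 TMM-normalized CPM beside 1.57 and 1.15. It was lost in 5 further alternatives, with -1.67 to -1.36.

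The change of each line's effect between R5 and R6 was tested in the same model. In WD-1 the effect was lower at R6 than at R5 for 17 members and higher for 0, beside 0.319% and 0.897% of all genes, with a median of -1.94 over members and -0.02 over all genes. In W-1 it was lower for 5 and higher for 1, beside 0.326% and 1.37% of all genes, with a median of -1.04. The count in W-1 was 14 without the second WT library at R5, 3 without the first, 1 without the third W-1 library at R5, 2 without the third WT library at R6 and 3 without the first W-1 library at R6. The count in WD-1 was 8 when only the libraries compared were fitted, 11 with scaling by library size alone, 30 without the second WT library at R5 and 3 without the third WT library at R6. It was 7 without the first or the third WT library or the third WD-1 library at R5, 10 without the first and 8 without the second WD-1 library at R6.

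GLYMA_08G083700 was such a member. It held 12.3, 24.1 and 14.3 TMM-normalized CPM in WT at R5 and 18.4, 18.3 and 27.0 in WD-1, which overlapped. In R6 libraries the levels were 5.88, 8.07 and 13.7 in WT and 0.982, 1.62 and 1.45 in WD-1, which did not. The WD-1 effect differed between the stages by -3.12 (SE 0.48, adjusted p = 0.000571, edgeR), and by -2.45 without the third WT library at R6, where the call was lost.

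GLYMA_18G059300 held 4.38, 6.77 and 6.05 TMM-normalized CPM in WT at R5 and 7.87, 8.19 and 9.41 in WD-1, so WD-1 lay above WT. By R6 WT had 5.88, 5.38 and 7.93 and WD-1 1.96, 2.29 and 1.45, so WD-1 lay below. The effects differed by -2.32 (SE 0.45, adjusted p = 0.0065, edgeR), and by -2.03 without the third WT library at R6, where the call was lost. GLYMA_09G256300 overlapped at R5 and not at R6, with WD-1 at 4.10, 9.81 and 11.0 against 2.26, 5.12 and 2.65 in WT at R5 and at 10.8, 11.1 and 7.96 against 21.4, 22.9 and 27.2 at R6. Its effects differed by -2.54 (SE 0.50, adjusted p = 0.00686, edgeR), and the call was lost without the third WT library at R6 and with libraries over 10 M counts alone, with -2.38 and -2.37.

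GLYMA_15G075500, just inside the limit of the list, moved the other way in W-1. It held 8.59, 5.61 and 9.45 TMM-normalized CPM in WT at R5 and 3.45, 2.87 and 4.69 in W-1, all below WT. The R6 libraries held 1.60, 4.03 and 1.68 in WT and 7.18, 3.57 and 2.49 in W-1, which overlapped. The W-1 effect was higher at R6 by 2.47 (SE 0.56, adjusted p = 0.0193, edgeR). The call was lost without the second W-1 library at R5 (2.27), the third WT library at R6 (2.14) or the first W-1 library at R6 (1.89), and with scaling by library size alone (2.32).

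The neighbouring members GLYMA_06G121600 and GLYMA_06G121900 had different field values. At R6 GLYMA_06G121900 held 52.9, 39.0 and 37.6 TMM-normalized CPM in WT and 11.8, 10.7 and 8.32 in WD-1, and it fell over stages by 1.17 (SE 0.21, adjusted p = 0.000898, edgeR). GLYMA_06G121600 held 69.0, 43.0 and 85.3 in WT and 37.3, 35.1 and 15.2 in WD-1, also without overlap, and did not pass the test over stages, with -0.59 (SE 0.25, adjusted p = 0.251, edgeR). The 2 genes were named for their position after their values were seen.

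Over stages 60 members did not pass the test in WD-1 and 88 did not pass in W-1 (edgeR). Of the 5 members at the limit of the list, GLYMA_07G234900 fell in WD-1, with -0.81 (adjusted p = 0.0235), and the others did not pass over stages in either line. GLYMA_18G155800 had the lowest field WT mean of the members at R6, with WT libraries at 0.535, 0 and 0.489 TMM-normalized CPM.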

How the data were processed

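The authors deposited 1 table of estimated counts per gene for each of 63 libraries, without normalization, per the file headers. Per the submitters' processing notes the tools were kallisto 0.43.1, FastQC 0.11.5, R 3.6.3 and sleuth 0.30.0, with no step attached to any. The sources used here do not give a genome build or annotation, and reads of near-identical gene copies could be divided between them. Each table held 55900 rows. The row without a gene name, with at most 4 counts, was left out.

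Greenhouse values are CPM without the 98 rows of the chromosome 13 stretch, grouped by file name as the choice of members requires, and were not tested. They were not normalized further. Field groups follow the labels. Field values of members are TMM-normalized CPM of rounded estimated counts. Transgene levels and the limits of 3 counts in a library are CPM without the chromosome 13 rows, in the field too. Tests used edgeR 4.0.16 in R 4.3.3 (filterByExpr, TMM, 2-sided quasi-likelihood F-test, Benjamini-Hochberg over 38914 genes at 0.05) in 1 model of 27 libraries and 9 groups. The standard error (SE) is the absolute log2 fold change over the root of F, and the common biological coefficient of variation was 0.284. The chromosome 13 rows stayed in this model. DESeq2 1.42.0 was an alternative. Scripts ran in Python 3.11.15 with pandas 2.3.3, numpy 2.4.6 and matplotlib 3.10.9, and the model was tested on simulated data.

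The members and lists were chosen with earlier results of these data known. Named members were the 10 with the lowest greenhouse ratio, 5 on each side of the limit, the 8 lowest and 4 highest field changes past the threshold per line, up to 5 by adjusted p in the direct comparison and in each change of effect, and the 3 highest WT levels; the rest were named after their values were seen. Word lists for pathways, tissue markers and promoter motifs could not be applied without gene names. Alternatives were another scaling, no filter, no chromosome 13 rows, only the libraries compared, depth class as a covariate, the replicate number as a block, DESeq2, each library left out, and, added after seeing the data, libraries over 10 M (mega) counts alone.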

Additional observations from a re-analysis of the deposited data

Results flagged for a closer look

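The following members had field values that differed between the lines or between stages by edgeR's quasi-likelihood test of the difference itself, with p-values adjusted over 38914 genes at 0.05. The shares of all genes lower and higher by the same tests were 0.116% and 0.439% for WD-1 against W-1, 0.326% and 1.37% for the change of the W-1 effect, and 0.319% and 0.897% for the change of the WD-1 effect.

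Between the lines, the log2 difference of WD-1 from W-1 over stages was 3.65 for GLYMA_14G136300, -1.11 for GLYMA_03G189100, -1.26 for GLYMA_20G098500, -1.57 for GLYMA_03G052200 and -1.15 for GLYMA_20G068000. For GLYMA_15G228600 the fitted value was -9.49, which depends on the count added by the fit, since the 9 WD-1 libraries held 2 counts of it.

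The W-1 effect at R6 differed from that at R5 by -5.38 for GLYMA_01G200100, -3.56 for GLYMA_03G052200, 2.47 for GLYMA_15G075500, -3.09 for GLYMA_12G215800, -1.29 for GLYMA_08G025100 and -1.65 for GLYMA_08G083700. The GLYMA_12G215800 call was lost in 10 of 35 alternatives, 7 of them with 1 library left out, where the value ran from -3.45 to -1.04, the latter without the third WT library at R6. That of GLYMA_03G052200 was lost without the third W-1 library at R5 (-1.59) or the third WT library at R6 (-3.13), and with libraries over 10 M counts alone (-4.09). That of GLYMA_08G025100 was lost in 16 of 35 alternatives.

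The WD-1 effect at R6 differed from that at R5 by -3.12 for GLYMA_08G083700, -5.89 for GLYMA_13G291800, -6.20 for GLYMA_01G200100, -2.32 for GLYMA_18G059300 and -2.54 for GLYMA_09G256300. The other members were GLYMA_08G025100 at -1.61, GLYMA_17G155000 at -3.24, GLYMA_14G072500 at -2.79, GLYMA_07G226600 at -2.57, GLYMA_07G267700 at -1.36 and GLYMA_08G048900 at -2.49. They were followed by GLYMA_06G121900 at -2.15, GLYMA_03G239700 at -4.56, GLYMA_03G189100 at -1.25, GLYMA_08G174700 at -2.69, GLYMA_19G224700 at -2.01 and GLYMA_06G180000 at -2.76. The GLYMA_13G291800 call was lost without the second WD-1 library at R5, with -4.30, and with libraries over 10 M counts alone, with -6.32. That second library held 2.96 TMM-normalized CPM beside 0.483 and 0.588. Without the second WT library at R5 the value was -9.31. The values of GLYMA_01G200100 rest on R5 levels of 0 to 0.980 TMM-normalized CPM.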

How the results depend on the processing

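No called value of a named gene changed direction under the alternatives run. The balance of lower against higher calls turned or evened out for W-1 at R5 (1 lower and 1 higher with no filter, with DESeq2 and without the first W-1 library, 1 and 2 without the second), for WD-1 at R5 (1 and 4 without the second WT library, 1 and 1 without the first WD-1 library) and for the change of the W-1 effect (0 and 1 without the third W-1 library at R5). The shares of all genes called under the alternatives are not given here, so a loss particular to the members is not shown. Counts of called members that moved by more than 1.5 times were as follows, and the cause of each move was not tested. With scaling by library size alone, the count was 26 for WD-1 over stages and 26 at R5/6, 2 for W-1 at R5/6, and 3 and 11 for the change of the W-1 and WD-1 effects from R5 to R6. Without a filter, W-1 gave 2 at R5 and 2 at R5/6. DESeq2 gave 2 for W-1 at R5, 3 at R5/6 and 10 for the change of its effect. With libraries over 10 M counts alone, W-1 gave 2 at R5/6 and 11 for the change of its effect, WD-1 gave 25 at R6, and WD-1 against W-1 gave 10. With only the libraries compared, the change of the WD-1 effect gave 8. Without the chromosome 13 rows no count moved by that much. As a description, 60 of the 100 members were chosen again with a Wt minimum of 1 CPM, 66 with 10 CPM and 74 with TMM-normalized CPM.

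With 1 library left out, the counts ran from 6 to 15 for W-1 and from 18 to 43 for WD-1 over stages. By stage W-1 gave 1 to 3 at R5, 1 to 2 at R5/6 and 4 to 25 at R6, and WD-1 gave 1 to 5, 8 to 51 and 7 to 42. WD-1 against W-1 gave 4 to 7, the changes of effect 1 to 14 in W-1 and 3 to 30 in WD-1, and WT between R5 and R6 65 to 75. Of the 100 members, 96 to 100 were chosen again.

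Whether replicate numbers pair the libraries was not settled. Deviations of same-numbered libraries correlated at -0.197 to 0.35, with a median of -0.004 over 108 pairs. Those of differently numbered libraries correlated at -0.38 to 0.302, with a median of -0.004 over 216 pairs. Of 27 libraries 14 correlated best with their own number, a count that was not tested. With the replicate block WD-1 gave 47 calls over stages, W-1 12, W-1 at R5/6 3 and the change of the W-1 effect 3.

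The first and second WT libraries at R6 held 2.51 and 1.17 M counts. With depth class as a covariate the R6 counts were 22 in W-1 and 39 in WD-1.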
